A study of Mus musculus with 9 samples.

Results

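The genes described here carry the symbols of subunits of the oxidative phosphorylation complexes. They were chosen by symbol: Ndufa, Ndufb, Ndufc, Ndufs and Ndufv for complex I, Sdha to Sdhd for complex II, Uqcr for complex III, Cox4 to Cox8 for complex IV, Atp5 for complex V, and the protein-coding genes of the mitochondrial genome (mt-Nd, mt-Cytb, mt-Co and mt-Atp). Of 49326 named gene identifiers, 117 matched these names, 16 of which (assembly factors, Ndufa4l2 and symbols with -ps or Rik) were dropped, which left 101 genes. Of these, 88 are nuclear (39 of complex I, 4 of complex II, 8 of complex III, 20 of complex IV with Ndufa4, and 17 of complex V) and 13 are mitochondrial (7 of complex I, 1 of complex III, 3 of complex IV and 2 of complex V). By the filter on low counts 99 were tested. The exceptions were Ndufa11b and Cox8b, which with Cox8c are the 3 genes with a mean under 1 TPM (a length-scaled expression level). Some members counted as nuclear genes, among them Ndufb4c, Cox6c2, Ndufs6b and Ndufa11b, are annotated pseudogenes.

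The series profiled polyA+ RNA of mouse cells, wild type or Hnrnpll-/-, as they formed embryoid bodies, aggregates in which stem cells differentiate. Its question is how loss of Hnrnpll, which encodes a protein that binds RNA and regulates splicing, changes expression in this process. Day 0 libraries are embryonic stem cells grown with 15% fetal bovine serum and 1000 U/ml leukemia inhibitory factor. Libraries of days 4 and 8 are embryoid bodies from hanging drops. Each day has 1 wild-type library and 2 knockout libraries, from the lines G6 and H8, so genotype and cell line cannot be told apart, and the labels do not say how the lines were derived. In these bulk samples fewer cells of a type and less RNA per cell cannot be told apart.

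Oxidative phosphorylation passes electrons from NADH (complex I) and succinate (complex II) through complex III to oxygen at complex IV, and complex V makes ATP from the proton gradient this creates. The complexes are mosaics: the mitochondrial genome is transcribed from both strands as long precursors that encode core subunits of complexes I, III, IV and V, while nuclear genes encode the rest and all of complex II. Several complex IV subunits, and subunit c of complex V, have alternative nuclear genes with tissue preferences. Pluripotent stem cells are known for high glycolysis, and differentiation is commonly described as a shift towards respiration.

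Several facts of the libraries touch what follows. Total counts ran from 54218051 to 184952442, and the lowest totals were those of the day 0 knockout libraries. Both knockout lines held less Hnrnpll RNA than wild type on every day, at 24.5 to 61.2 TPM against 77.1 to 112 TPM. Summed TPM of 7 pluripotency markers was 3645, 2561 and 512 in wild type at days 0, 4 and 8, against 5836 to 6029, 2702 to 2735 and 3202 to 3304 in the knockout. The 10 cardiomyocyte markers summed to 344 TPM in wild type at day 8 and to 16.5 and 24.7 TPM in the knockout, and the 5 yolk sac markers to 328 TPM against 26.9 and 45.7 TPM. None of these 22 marker genes was at 0 in a day 8 library. The wild-type and knockout bodies of day 8 thus differed in the markers of their cell types, and the part of this in the results for subunit genes was not tested.

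The day 0 knockout libraries also stand apart in 2 technical measures. Low counts (1 to 40) fell on multiples of 4 in 43.5% and 42.6% of genes there and in 30.5% to 33.2% elsewhere. The 3 annotated copies of mitochondrial genes on chromosome 2 (Gm13339, Gm13340 and Gm13341) held 0.0723 and 0.0700 counts for every 100 counts of the copies on chromosome 1 in G6 and H8 at day 0, and 1.07 to 1.33 in the other 7 libraries. Every comparison with day 0 knockout cells rests on these libraries.

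The mitochondrial genes were the most abundant subunit genes. Their 13 transcripts took 5.64%, 4.09% and 5.83% of all TPM in wild type at days 0, 4 and 8, 4.17%, 4.43% and 5.84% in line G6, and 5.87%, 4.57% and 5.90% in line H8. The 88 nuclear genes together took 1.69%, 1.82% and 1.49% in wild type, 2.29%, 1.71% and 1.83% in G6, and 2.01%, 1.84% and 1.93% in H8. Mitochondrial TPM was thus 3.34, 2.25 and 3.91 times the nuclear sum in wild type, 1.82, 2.59 and 3.19 times in G6, and 2.91, 2.48 and 3.06 times in H8. At day 4 the mitochondrial share was the lowest of its line in wild type and H8 but not in G6, whose lowest was at day 0.

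**Figure D1:**
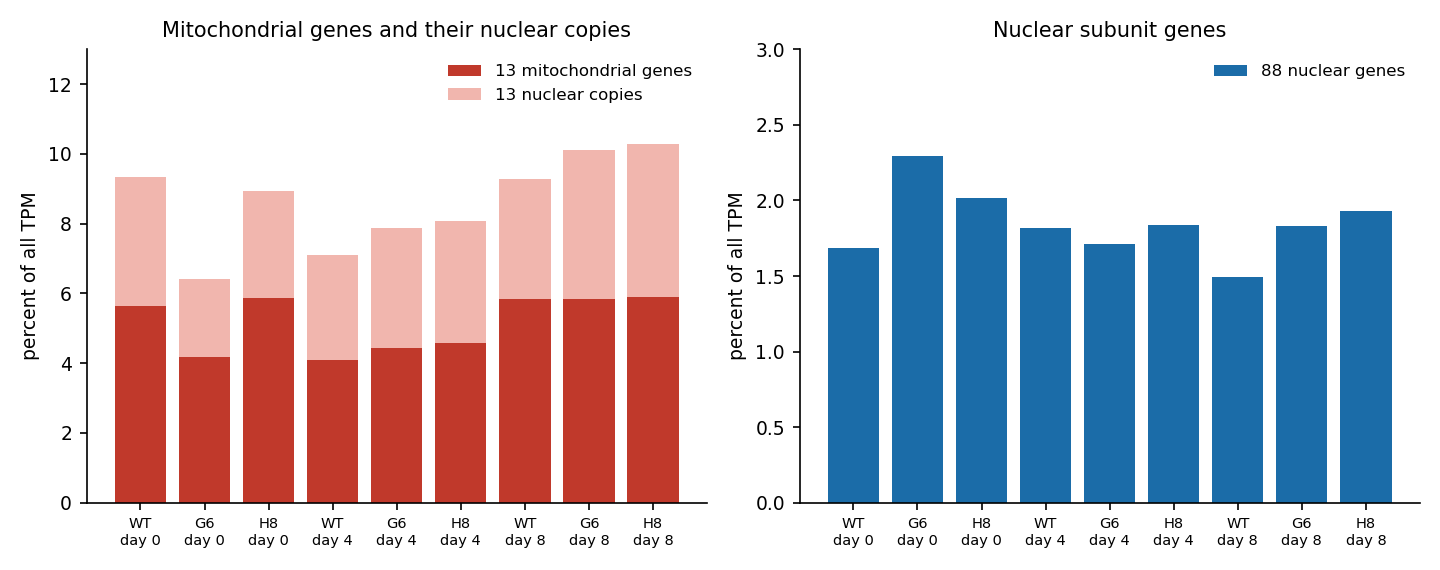
Percent of all TPM in each library taken by the 13 mitochondrial subunit genes and by 13 annotated nuclear copies that share sequence with them (left), and by the 88 nuclear subunit genes (right); each bar is 1 library. With the copies included, the mitochondrial total runs from 6.42% in G6 at day 0 to 10.3% in H8 at day 8.

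The level of single mitochondrial genes depends on how reads are divided between them and copies in the nuclear genome. In the GENCODE M21 transcripts, 9 of the 13 mitochondrial genes share at least one 50-base stretch with a gene at another locus, and 7 share at least 50% of theirs. Those 7 are mt-Co2 (100%), mt-Co3 (99.9%), mt-Atp6 (99.5%), mt-Nd4l (98.8%), mt-Nd3 (97.99%), mt-Nd4 (62.2%) and mt-Co1 (51.1%). The copies with the most counts lie on chromosome 1 between Gm28439 (mm10 start 24611535) and Gm29216 (end 24616197). The 13 copies held 0.526 to 0.774 TPM for each TPM of the mitochondrial genes, the lowest ratios being those of the day 0 knockout (0.540 in G6, 0.526 in H8).

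The clearest case is the gene pair of complex V, mt-Atp8 (chromosome M, 7766 to 7969) and mt-Atp6 (7927 to 8607), which overlap on the plus strand and encode subunits of the membrane part of complex V. In wild type at days 0, 4 and 8, mt-Atp8 stood at 7406, 4361 and 7876 TPM, and mt-Atp6 at 931, 688 and 912 TPM. The copy of mt-Atp6, Gm10925, held 7910.1, 5834 and 7343 TPM in the same libraries, above mt-Atp6 itself. mt-Atp8, in contrast, shared no 50-base stretch with an annotated transcript of another locus. Sequence between annotated transcripts was not searched, so a copy of mt-Atp8 there would not have been seen. On chromosome 1 such an interval lies between Gm10925 (end 24614651) and Gm28661, a copy of mt-Co2 (start 24614885). Levels of mt-Co1, mt-Co2, mt-Co3, mt-Atp6, mt-Nd3, mt-Nd4 and mt-Nd4l are therefore uncertain, and each comparison below was repeated with the counts of the copies added to their mitochondrial gene.

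The nuclear genes are less affected. Of 88, 37 share a 50-base stretch with another locus, but only Ndufb4c (100%) and Cox6c2 (52.7%) share 50% or more, and both are annotated processed pseudogenes. In addition 28 nuclear genes have an exon that overlaps another counted gene, and their counts are uncertain because the sources used here do not say whether strand was used. None of Cox6a1, Cox6b2, Cox7a1, Cox8a, Ndufa7 and Atp5g1, on which the genotype results turn, has such an overlap; the shares of these 6 genes are 7.18%, 0, 0, 0, 1.52% and 11.6%.

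Within the nuclear set, levels were ordered by complex. The median TPM of the subunit genes in wild type at day 0 was 94.7 for complex I, 142 for complex II, 183 for complex III, 212 for complex IV and 307 for complex V, and the same order held in the other 8 libraries. Atp5b, the catalytic beta subunit of complex V, was the highest nuclear gene. It was at 1630.0, 1463 and 1293 TPM in wild type at days 0, 4 and 8, at 2169, 1442 and 1542 TPM in G6 and at 2205, 1448 and 1523 TPM in H8. Its partner Atp5a1, the alpha subunit, was steadier, between 657 and 845 TPM in all 9 libraries.

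Subunit genes had a smaller median range over the libraries than all tested genes. The ratio of the highest to the lowest library had a median of 1.89 over the 85 nuclear genes of at least 1 TPM and 1.80 over the 13 mitochondrial genes. It was 2.94 over the 16561 tested genes with a mean of at least 1 TPM, which were not matched to the subunit genes for expression level. The steadiest were Uqcrc2, a core subunit of complex III (1.25), Atp5a1 (1.29) and Atp5d (1.34). G6 at day 0 was the highest library for 42 of the nuclear genes, and wild type at day 8 the lowest for 34. The mitochondrial genes did not follow: 6 of 13 were lowest in wild type at day 4 and 6 of 13 were highest in wild type at day 8.

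**Figure D2:**
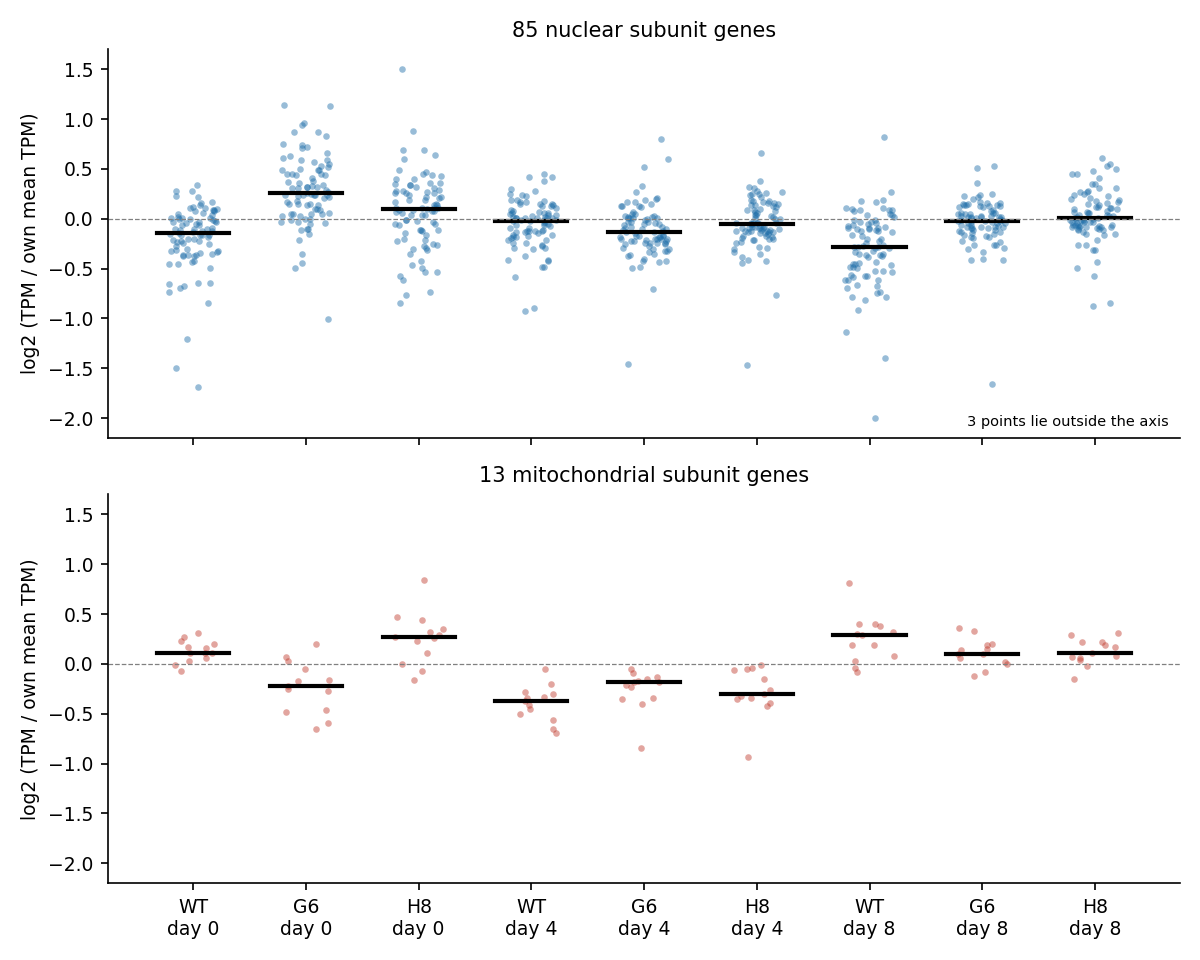
Level of each subunit gene in each library as log2 of its TPM over its own mean TPM in the 9 libraries, for 85 nuclear genes of at least 1 TPM (top) and 13 mitochondrial genes (bottom); points are genes and black bars medians. Nuclear genes lie highest in G6 at day 0 and lowest in wild type at day 8, while mitochondrial genes are lowest in the day 4 libraries and in G6 at day 0.

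In stem cells (day 0), most nuclear subunit genes were measured higher in the knockout. Values were positive for 69 of 86 nuclear genes, with a median log2 difference of 0.30 against -0.02 over all 24794 genes tested. The largest medians were those of complex IV (0.51) and complex I (0.41), followed by complex III (0.23), complex II (0.22) and complex V (0.16). By edgeR's quasi-likelihood test with Benjamini-Hochberg adjustment over all genes, 2 of 99 members rose, Cox6a1 and Cox6b2, and none fell. In this comparison 1.11% of all genes rose and 4.33% fell, 5.43% in all. Without adjustment 26 members (26.3%) had a p under 0.05, close to the 24.4% of all genes. Of the 13 mitochondrial genes 4 were positive, with a median of -0.12 (-0.17 with the copies added), and none passed by edgeR, DESeq2 or limma-voom (1 at an unadjusted p under 0.05, mt-Atp8). In TPM both knockout lines lay above wild type for 60 of the 99 tested members (58 nuclear), against 32.8% of all genes, and both below for 11 (8 nuclear), against 40.2%.

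Cox6a1 (chromosome 5, 115345642 to 115348981, minus strand) encodes the broadly expressed form of subunit 6A of complex IV. Its level at day 0 was 273 TPM in wild type, 773 TPM in G6 and 702 TPM in H8. At day 4 it was at 325 TPM in wild type, and at 372 and 371 TPM in the knockout. At day 8 it was at 230 TPM in wild type, and at 421 and 448 TPM in the knockout. Both knockout lines were above wild type on every day, and by the widest margin at day 0. The log2 difference was 1.44 (SE 0.16, adjusted p = 0.0103, edgeR) at day 0, 0.12 (SE 0.15, adjusted p = 0.795) at day 4 and 1.04 (SE 0.16, adjusted p = 0.0235) at day 8.

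Cox6b2 (chromosome 7, 4751792 to 4753094, minus strand) encodes the form of subunit 6B that is best known from testis. Wild type held 49.5, 61.5 and 28.6 TPM at days 0, 4 and 8. Line G6 held 219, 112 and 165 TPM and line H8 held 130, 98.5 and 165 TPM, so that every knockout library was above every wild-type library. The log2 difference was 1.83 (SE 0.33, adjusted p = 0.0359, edgeR) at day 0, 0.70 (SE 0.31, adjusted p = 0.396) at day 4 and 2.62 (SE 0.35, adjusted p = 0.0208) at day 8. Its share of Cox6b transcripts (Cox6b1 and Cox6b2 together) was 14.3%, 12.9% and 7.54% in wild type, 38.2%, 23.8% and 31.5% in G6, and 31.4%, 20.7% and 29.0% in H8. Cox6b1, the broadly expressed gene, was at 297, 414 and 351 TPM in wild type and at 285 to 403 TPM in the knockout, and did not pass on any day. Markers of germ cells and testis (5 genes, none at 0 in any library) summed to 112, 77.5 and 26.3 TPM in wild type at days 0, 4 and 8. They summed to 93.6, 170 and 124 TPM in G6 and to 69.1, 118 and 74.3 TPM in H8. Both lines thus lay below wild type at day 0 and above it at days 4 and 8. At day 8, 2 of the 5 rose by edgeR (list median 2.31), where 5.01% of all genes rose, and none passed at days 0 and 4. The part of these markers in the Cox6b2 result was not tested.

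The sequences before the start sites of these genes are shown because they are the only members that passed at both day 0 and day 8. Each is the minus strand, 5' to 3', from RefSeq promoters of GRCm38.p6 (the mm10 assembly), ending at the base before the annotated gene. Capitals mark matches to the core of the binding motif of nuclear respiratory factor 1 (GCGCA, any 1 base, then GCGC), searched on both strands.
Cox6a1, chr5:115348982-115349208: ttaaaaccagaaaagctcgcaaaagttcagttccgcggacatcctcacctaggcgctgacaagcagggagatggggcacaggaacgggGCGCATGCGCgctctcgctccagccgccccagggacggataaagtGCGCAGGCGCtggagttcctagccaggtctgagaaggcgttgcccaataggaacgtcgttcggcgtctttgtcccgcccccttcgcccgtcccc
Cox6b2, chr7:4753095-4753344: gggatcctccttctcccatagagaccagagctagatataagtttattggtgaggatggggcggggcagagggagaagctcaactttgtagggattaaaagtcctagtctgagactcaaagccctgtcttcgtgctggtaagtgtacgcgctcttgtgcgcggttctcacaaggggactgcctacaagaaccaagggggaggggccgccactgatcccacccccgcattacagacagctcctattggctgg
The Cox6a1 window holds 2 matches and the Cox6b2 window holds none. Promoter sequences were found for 67 of the 88 nuclear genes, and 13 of the 67 (19.4%) hold a match within 250 bases before the start, against 4.23% of 27025 genes. The other 12 are Ndufa5, Ndufa8, Ndufa11, Ndufb4, Ndufs5, Ndufs6, Sdha, Sdhd, Atp5c1, Atp5g2, Atp5h and Atp5k. The ETS motif CCGGAAGT, searched on both strands, was found in 3 of the 67 (4.48%), Uqcr11, Uqcrh and Atp5h, against 3.23% of all genes. A match describes letters and not binding.

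Cox4i2, a form of subunit 4 of complex IV known to be induced by low oxygen, had a large difference in stem cells that did not pass by edgeR. Wild type held 1.67 TPM at day 0, G6 11.8 TPM and H8 8.14 TPM, and the log2 difference was 2.57 (SE 0.57, adjusted p = 0.0601, edgeR). DESeq2 and limma on log2 TPM with a pseudocount of 1 or 0.1 called it higher, where they called 5.88%, 1.88% and 1.85% of all genes higher. At day 4 it was at 2.83 TPM in wild type and 9.34 and 6.42 TPM in the knockout. At day 8 it was at 3.51 TPM in wild type and 1.704 and 2.93 TPM in the knockout, so the groups lay in the opposite order, and the difference between the day 8 and day 0 contrasts was -3.04 (SE 0.73, adjusted p = 0.0718). Cox4i1, the major form, was more than 98% of Cox4i transcripts in every library.

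The knockout lines were not alike at day 0. All 13 mitochondrial genes were higher in H8 than in G6, by a median of 0.51 on the log2(TPM + 1) scale. Set against wild type, 11 of 13 were lower in G6 (median -0.43) and 10 of 13 higher in H8 (median 0.11). The nuclear genes went the other way, with 65 of 88 lower in H8 than in G6 (median -0.27). Without the H8 library of day 0, 6 members passed (5.71% of all genes): Atp5g1, Cox6a1, Cox6b2, Ndufa5 and Ndufa8 rose and mt-Atp8 fell. Over all alternatives the day 0 log2 difference ran from 1.409 to 1.457 for Cox6a1 and from 1.443 to 2.105 for Cox6b2. The count of members that passed changed with the library left out. The count was 1 without either knockout library of day 4 (1.53% of all genes) or without G6 or H8 of day 8 (2.41% and 2.31%). With the knockout line as a block 4 members and 6.30% of all genes passed. Cox6a1 and Cox6b2 were joined by Atp5g2 (log2 difference 1.32, SE 0.16, adjusted p = 0.0192) and Ndufa6 (0.98, SE 0.17, adjusted p = 0.0402), both on chromosome 15. Over all genes of that chromosome H8 was higher than G6 (median log2 difference 0.38, below).

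Of the 3 days, fewest genes passed between genotypes at day 4. By edgeR 0 of 99 members passed (4 at an unadjusted p under 0.05, against 13.5% of all genes: Ndufs4, Ndufv3, Uqcrfs1 and Cox4i2), DESeq2 called 1, Ndufs4, lower, and limma-voom called 0. Of all genes 0.00807% passed by edgeR. The median log2 difference was -0.11 over the 86 nuclear genes, with 60 negative, and 0.11 over the mitochondrial genes, against 0.07 over all genes. With total count scaling the medians were -0.04 and 0.17, and on log2 TPM -0.05 and 0.18. The 5 primitive streak markers, of which 0 passed by edgeR (list median -5.01), summed to 1519 TPM in wild type at day 4 and to 52.6 and 121 TPM in the knockout, with 1 of the 5 at 0 in G6 and none in the other 2 libraries, and their part in the results for subunit genes was not tested. Both knockout lines lay above wild type in TPM for 35 members (25 nuclear and 10 mitochondrial), against 46% of all genes, and below it for 43 (41 nuclear), against 31.5%. Ndufs4, an accessory subunit of complex I, was at 141 TPM in wild type and at 104 and 97.7 TPM in the knockout (log2 difference -0.56, SE 0.15, adjusted p = 0.233 by edgeR).

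**Figure D3:**
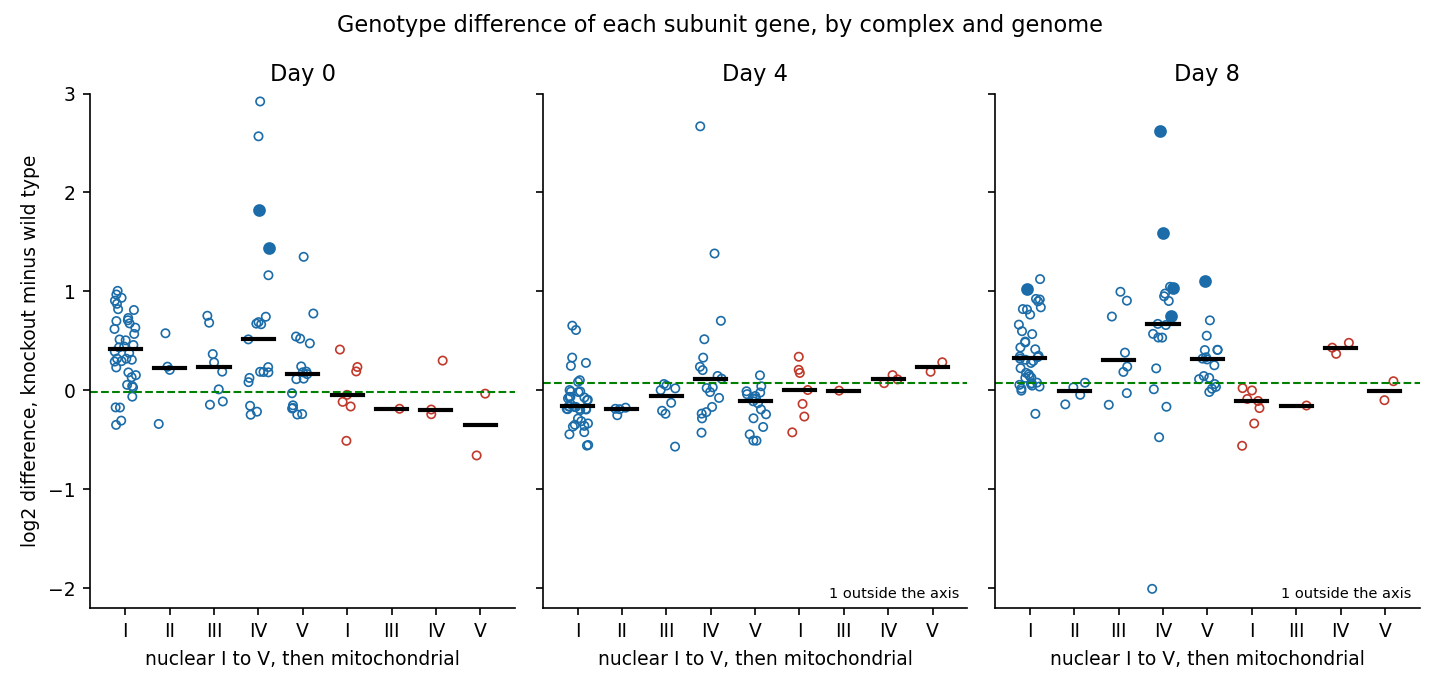
Log2 difference between knockout and wild type from the edgeR model for each subunit gene at days 0, 4 and 8, by complex, nuclear in blue and mitochondrial in red; filled points passed at an adjusted p under 0.05, black bars are medians and the green dashed line is the median of all genes. Filled points are 2 at day 0 and 6 at day 8, all nuclear, and 5 of those 6 day 8 points lie above a log2 difference of 1.

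At day 8 the nuclear genes were again measured higher in the knockout, 76 of 86 with a positive value and a median log2 difference of 0.33 against 0.08 over all genes. The 6 members that rose, of 99, were Cox6b2, Cox7a1, Cox6a1 and Cox8a of complex IV, Ndufa7 of complex I and Atp5g1 of complex V, and none fell. In this comparison 5.01% of all genes rose and 4.86% fell, 9.87% in all, so the count of members that rose is near the background. Without adjustment 24 members (24.2%) had a p under 0.05, below the 29.7% of all genes. Complex IV had the largest nuclear median (0.67, 16 of 19 positive), followed by complexes I (0.33, 36 of 38), III (0.31, 6 of 8) and V (0.31, 16 of 17). Complex II lay at -0.01, with 2 of 4 positive. Both lines lay above wild type in TPM for 62 members (59 nuclear), against 40% of all genes, and below it for 27 (18 nuclear and 9 mitochondrial), against 44.4%.

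The 4 genes of complex II, which oxidises succinate and has no mitochondrially encoded subunit, had levels at day 8 that differed little between genotypes. Sdha, the flavoprotein, was at 155 TPM in wild type and at 146 and 148 TPM in the knockout at day 8. Sdhb, the iron-sulfur subunit, was at 151 TPM against 131 and 153 TPM, and Sdhc and Sdhd, the membrane anchors, were at 50.5 against 46.0 and 47.0 TPM and at 210.2 against 173 and 177 TPM. None passed on any day by edgeR (at an unadjusted p under 0.05, 1 at day 0 and 0 at days 4 and 8) or by limma-voom. DESeq2 called Sdhb higher at day 0 (117 TPM in wild type against 176 and 171 TPM).

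Cox7a1 (chromosome 7, 30184144 to 30186078, plus strand) encodes the form of subunit 7A known from heart and muscle. It was at 19.6, 23.0 and 11.6 TPM in wild type at days 0, 4 and 8, at 48.3, 36.8 and 27.9 TPM in G6 and at 38.6, 32.6 and 37.1 TPM in H8. Both lines were above wild type on every day. The log2 difference at day 8 was 1.59 (SE 0.35, adjusted p = 0.0443, edgeR). At day 8 Cox7a1 was higher in the knockout, and the cardiomyocyte markers were lower there. The 5 skeletal muscle markers summed to 29.0 TPM in wild type and to 18.1 and 27.0 TPM in the knockout at day 8. Of these, 3 were at 0 in wild type, 1 in G6 and 0 in H8. The sum and the median differ in direction: the list median log2 difference was 5.57, higher in the knockout, and 0 of the 5 passed by edgeR. The part of muscle cells in the Cox7a1 result was not tested. Cox7a2, the broadly expressed form, was at 161 TPM in wild type and 283 and 275 TPM in the knockout at day 8 (log2 difference 0.90, SE 0.39, adjusted p = 0.183).

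Cox8a, the broadly expressed form of subunit 8, was at 344 TPM in wild type and at 528 and 537 TPM in the knockout at day 8. The log2 difference was 0.75 (SE 0.16, adjusted p = 0.0388, edgeR). Ndufa7, an accessory subunit of complex I (chromosome 17, 33824572 to 33838317, plus strand), lay between 448 and 475 TPM in all 6 knockout libraries. Wild type held 311, 443 and 250.4 TPM, and the log2 difference at day 8 was 1.02 (SE 0.16, adjusted p = 0.0237). Atp5g1, 1 of the 3 genes for subunit c of complex V (chromosome 11, 96068852 to 96075670, minus strand), was at 120, 85.7 and 58.4 TPM in wild type. Line G6 held 284, 92.2 and 114 TPM and line H8 180.2, 98.5 and 125 TPM, with a log2 difference of 1.10 (SE 0.25, adjusted p = 0.0474) at day 8.

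**Figure D4:**
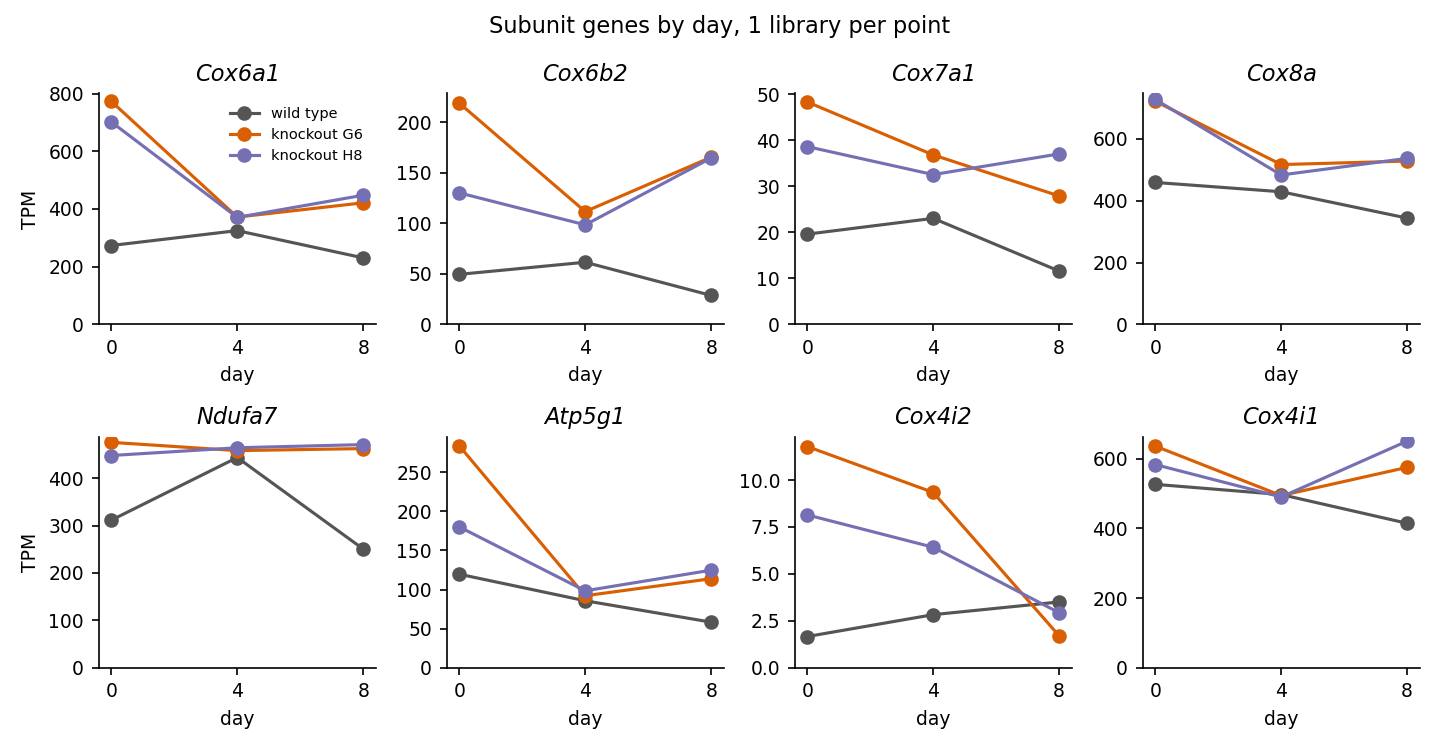
TPM by day of the 6 genes that passed at day 8 and of both Cox4i genes, 1 point per library, in wild type (grey), knockout G6 (orange) and knockout H8 (purple); axes start at 0. Cox6a1, Cox6b2, Cox7a1, Cox8a and Atp5g1 lie above wild type in both lines on every day, and Cox4i2 lies above it at days 0 and 4 only.

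The other genes for subunit c did not pass against wild type by edgeR with no block. Atp5g2 was at 301, 435 and 274 TPM in wild type, 645, 370.0 and 356 TPM in G6 and 872, 536 and 465 TPM in H8. Atp5g3 was at 528, 714 and 555 TPM in wild type and at 297 to 632 TPM in the knockout. Its share of subunit c transcripts was 55.6%, 57.8% and 62.6% in wild type, against 40.5%, 50.2% and 53.1% in G6 and 22.04%, 48.0% and 46.4% in H8, lower in both lines on every day.

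The count at day 8 changed with the libraries left out, as did the count over all genes. It was 0 without either knockout library of day 4, where 0 genes in all were called, and 0 without G6 of day 8, where 0.00816% were. It was 1 (Cox6b2) without H8 of day 8, where 0.928% of all genes rose. It was 13 and 14 without G6 or H8 of day 0, where 8.80% and 8.88% of all genes rose, and 13 with all 3 libraries of day 0 left out, where 9.22% did. With the knockout line as a block 12 members and 6.12% of all genes rose, Ndufa1, Ndufa6, Ndufb6, Ndufb9, Uqcrq and Cox6c in addition. Blocked log2 differences of these ranged from 0.74 (Uqcrq, SE 0.16, adjusted p = 0.0465) to 1.04 (Cox6c, SE 0.19, adjusted p = 0.0318). Ndufa6, Ndufb9 and Cox6c lie on chromosome 15 and Ndufb6 on chromosome 4. Over all genes there, H8 was higher than G6 (medians 0.38 and 0.24, below). On log2(TPM + 1), chromosome 15 had a day 8 median against wild type of -0.13 in G6 and 0.19 in H8. The part of this line difference in these calls was not tested.

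Other gene classes are given beside these medians. Genes whose longest transcript is under 1000 bases had medians of 0.14, 0.00 and 0.53 at days 0, 4 and 8, and those in the longest of 3 length classes -0.04, 0.07 and -0.19. The nuclear subunit genes had medians of 0.30, -0.11 and 0.33, above the short genes at day 0 and below them at days 4 and 8. The nuclear subunit genes are short, with a median of 951.5 bases against 3201 for other protein-coding genes. The 83 cytosolic ribosomal protein genes had a median of 0.25 at day 0, -0.15 at day 4 and 0.50 at day 8 (98.8% positive), and the 78 mitochondrial ribosomal protein genes 0.04, -0.14 and 0.25. The nuclear subunit genes thus had the sign of the cytosolic ribosomal protein genes on each day; the part of transcript length in their medians was not tested.

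The mitochondrial genes did not share the day 8 pattern. Their median was -0.09 (-0.09 with the copies added), with 5 of 13 positive, and 0 passed by edgeR (0 at an unadjusted p under 0.05), DESeq2 or limma-voom. By total count scaling the median was 0.005, with 7 of 13 positive, and on log2 TPM it was -0.21, with 3 of 13 positive. By complex, the 3 genes of complex IV were all positive: mt-Co1 at 0.48 (SE 0.28, adjusted p = 0.302), mt-Co3 at 0.43 (SE 0.24, adjusted p = 0.296) and mt-Co2 at 0.37 (SE 0.20, adjusted p = 0.266). mt-Co1, the catalytic core of complex IV, held 13479 TPM in wild type, 17522 TPM in G6 and 17021 TPM in H8. Of the 7 complex I genes 6 were negative. The most negative was mt-Nd6 (-0.56, SE 0.28, adjusted p = 0.241), the member encoded on the minus strand (chromosome M, 13552 to 14070), at 2856 TPM in wild type and 1865 and 1692 TPM in the knockout. The end of mt-Nd5, on the other strand, overlaps it, so only reads within that overlap could not be told apart if strand was not used.

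Over all days together, 0 members passed by edgeR (14 at an unadjusted p under 0.05, against 19.7% of all genes), where 0.984% of all genes did. DESeq2 called 6 higher (Cox5b, Cox6a1, Cox6b2, Cox7a1, Cox8a and Ndufa6) and limma-voom 1, Cox6b2, where they called 6.58% and 1.38% of all genes higher. For Cox6b2 the log2 difference by edgeR was 1.65 (SE 0.36, adjusted p = 0.0655). Without the wild-type library of day 4, Cox6a1 and Cox6b2 passed. Of the 19 nuclear genes of complex IV 18 were positive, with a median of 0.33 against -0.02 over all genes.

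The genotype difference was tested between days; the contrast of days 4 and 0 was added after the values were seen. It was lower at day 4 than at day 0 for 72 of 86 nuclear genes (median -0.44 against 0.16 over all genes) and higher at day 8 than at day 4 for 79 of 86 (median 0.50 against 0.01). For the mitochondrial genes these medians were 0.18 and -0.07, the latter 0.05 with the copies added. By edgeR 0 members passed in either comparison, or between days 8 and 0, and limma-voom also called 0. At an unadjusted p under 0.05 there were 22 members for days 4 and 0 (22.2%, against 17.2% of all genes) and 26 for days 8 and 4 (26.3%, against 16.3%). For days 8 and 0 there were 6 (6.06%), below the 25.6% of all genes. DESeq2 called 4 lower at day 4 than at day 0 (Cox6a1, Ndufa2, Ndufc2 and Ndufs3) and 3 higher at day 8 than at day 4 (Cox6a1, Cox6b2 and Ndufa7). Between days 8 and 0 it called 3 lower (Cox4i2, Cox6a2 and Ndufs3). Of all genes, edgeR called 0.504% between days 4 and 0 (0.456% higher, 0.0484% lower), 0 between days 8 and 4, and 4.70% between days 8 and 0 (3.75% higher, 0.948% lower). Between days 8 and 0, 7 of 13 mitochondrial genes were positive (median 0.03). The 3 of complex IV were all positive (median 0.63), and none passed by edgeR with all libraries kept.

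Along the knockout course, most nuclear subunit genes were measured lower in day 4 bodies than in stem cells. The median log2 difference was -0.32 against 0.06 over all genes, and 62 of 86 were negative. By edgeR 13 members fell and 0 rose, where 5.16% of all genes fell and 9.56% rose. Among the 13 were Ndufa2, Ndufa5, Ndufa8, Ndufb4 and Ndufs3 of complex I, Uqcrc1 of complex III, Cox6a1, Cox7c and Cox8a of complex IV, Atp5b and Atp5g1 of complex V, and mt-Nd3. With the line as a block 16 members fell, Atp5g2, Ndufb6 and Uqcrq in addition, where 5.47% of all genes fell. In that model Cox7a2l, which is counted with complex IV by its symbol, rose (log2 difference 0.55, SE 0.12, adjusted p = 0.0411, edgeR), where 9.82% of all genes rose. Without the block it had 0.55 (SE 0.15, adjusted p = 0.0614, edgeR). DESeq2, total count scaling and limma on log2 TPM also called Cox7a2l higher. They called 13.9%, 10.1% and 11.2% to 11.8% of all genes higher. Line G6 held 163 and 250.2 TPM of Cox7a2l at days 0 and 4, and line H8 185 and 258 TPM. Without adjustment 39 members (39.4%) had a p under 0.05, against 32.3% of all genes. In TPM 55 members (49 nuclear) were lower in both lines, against 31.2% of all genes, and 18 were higher in both, against 40.2%.

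Core subunits among them included Ndufs3, which lies in the arm of complex I that passes electrons to ubiquinone, Uqcrc1, a core subunit of complex III, and Atp5b. At day 0 Ndufs3 stood at 94.7 TPM in G6 and 81.0 TPM in H8, and at day 4 at 56.4 and 47.1 TPM at day 4, a log2 difference of -0.84 (SE 0.16, adjusted p = 0.025, edgeR). Both day 4 libraries lay below both of day 0. Ndufs3 shares 35.8% of its 50-base stretches with other loci and overlaps an exon of Kbtbd4, so its counts are uncertain. For Atp5b, whose levels are given above, the difference was -0.64 (SE 0.11, adjusted p = 0.0178). In wild type Atp5b was lower at day 4 as well, while Ndufs3 was at 56.2 TPM at day 0 and 64.3 TPM at day 4.

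Among the members that passed, the largest fall was that of mt-Nd3, a membrane subunit of complex I, with a log2 difference of -1.46 (SE 0.25, adjusted p = 0.0178, edgeR). Line G6 held 984, 477 and 869 TPM at days 0, 4 and 8, and line H8 1538, 449 and 772 TPM. Wild type held 960.5, 528 and 1127 TPM, so the level was lowest at day 4 in all 3 lines. Its nuclear copy Gm28438 was at 1243, 873 and 1442 TPM in G6 and 1778, 796 and 1358 TPM in H8, and with copies added 13 members still passed, 1 of them mitochondrial. The next largest falls were those of Atp5g1 (-1.12, SE 0.20, adjusted p = 0.0186), Ndufa5 (-1.04, SE 0.23, adjusted p = 0.0335) and Cox6a1 (-0.99, SE 0.13, adjusted p = 0.00708). Cox6a2, at 2.22 and 6.17 TPM at day 0 and 0.574 and 0.571 TPM at day 4, gave the most negative value, -2.86 on the log2 scale (SE 0.92, edgeR adjusted p = 0.0896), and of the tools and settings run DESeq2 alone called it. Without G6 or H8 of day 4 the count of members was 0, and 0.571% and 0.551% of all genes fell. Without G6 or H8 of day 8 it was 5 and 4, and 2.86% and 2.88% of all genes fell. Without G6 of day 0, 14 members fell and 2 rose (Ndufab1 and Ndufb7), and without H8 of day 0, 16 fell, where 6.32% and 4.32% of all genes fell. With H8 of day 0 left out all 16 fell; with G6 of day 0 left out 14 fell, 7 of them mitochondrial, and Ndufab1 and Ndufb7 rose.

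From day 4 to day 8 in the knockout the nuclear genes moved little, while the mitochondrial genes were measured higher. By edgeR 0 members passed (8 at an unadjusted p under 0.05, against 13.2% of all genes), where 0.311% of all genes did, limma-voom called 0, and DESeq2 called 1, Cox4i2, lower. All 13 mitochondrial genes had a positive value (median 0.40 against 0.01 over all genes), and all 13 were higher in both lines in TPM, where 33.4% of tested genes were. The nuclear median was 0.09, with 56 of 86 positive.

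The wild-type course has 1 library a day and no test. From day 0 to day 4 all 13 mitochondrial genes were lower (median -0.44 on the log2(TPM + 1) scale) while 58 of 88 nuclear genes were higher (median 0.14). From day 4 to day 8 all 13 mitochondrial genes were higher (median 0.60) while 66 of 88 nuclear genes were lower (median -0.25). In line H8 12 of 13 mitochondrial genes were lower at day 4 than at day 0 (median -0.57), and in G6 only 6 of 13 were (median 0.03). Nuclear medians from day 0 to day 4 were -0.36 in G6 and -0.18 in H8, of opposite sign to wild type. From day 4 to day 8 they were 0.07 and 0.08, again opposite.

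Several other tissue forms were low in every library, unlike Cox6b2 and Cox7a1. Cox6a2, the heart and muscle form of subunit 6A, was at 0.0848 to 6.17 TPM, Cox7b2 at 0.594 to 3.37 TPM and Cox8c, a testis form, at 0 to 1.13 TPM. Cox8b, the muscle form of subunit 8, was listed at 0 in 8 libraries and at 1.16 TPM in H8 at day 0. Of Cox6a transcripts, Cox6a1 made up at least 98.8% in every library. Wild type at day 8, which had the highest cardiomyocyte markers, had Cox6a2 at 2.78 TPM, second to H8 at day 0.

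The lines H8 and G6 differed in a few nuclear genes that cluster by chromosome. Ndufb6, Ndufb9, Ndufa6, Cox6c, Atp5g2 and Cox6c2 were more than 1.2 times higher in H8 than in G6 on all 3 days, 6 of the 98 genes compared. Ndufs6b, an annotated pseudogene, was lower by the same ratio. Ndufb9, an accessory subunit of complex I, was at 199, 194 and 222 TPM in line G6 and at 314, 273 and 336 TPM in H8. Cox6c was at 494, 428 and 488 TPM in G6 and at 791, 612 and 650 TPM in H8. Ndufb9, Ndufa6, Cox6c and Atp5g2 lie on chromosome 15 and Ndufb6 on chromosome 4, while Cox6c2 on chromosome 12 is the pseudogene that shares 52.7% of its 50-base stretches with Cox6c.

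The same chromosomes stand out over all genes. The median log2 difference between H8 and G6, in the model with line as a term, was 0.38 over 665 tested protein-coding genes of chromosome 15 and 0.24 over 1097 genes of chromosome 4. Over the 18 other nuclear chromosomes it ran from -0.10 to 0.05. All 13 mitochondrial genes were positive in this model, with a median of 0.20. By day, on the log2(TPM + 1) scale, their medians were 0.51, 0.015 and -0.03 at days 0, 4 and 8. Of the 13, 13, 7 and 5 were positive. On that scale chromosome 15 had medians of 0.37, 0.25 and 0.32, so the mitochondrial difference was seen at day 0 and not at days 4 and 8. For single members the differences were 0.64 for Ndufb6 (SE 0.11, adjusted p = 0.217, edgeR), 0.63 for Ndufb9 (SE 0.11, adjusted p = 0.221) and 0.57 for Cox6c (SE 0.12, adjusted p = 0.273). By edgeR 0 members passed and 8 (8.08%) had an unadjusted p under 0.05, against 8.68% of all genes, and 0.00403% of all genes passed; no other tool was run for this comparison, which was chosen after the values were seen.

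**Figure D5:**
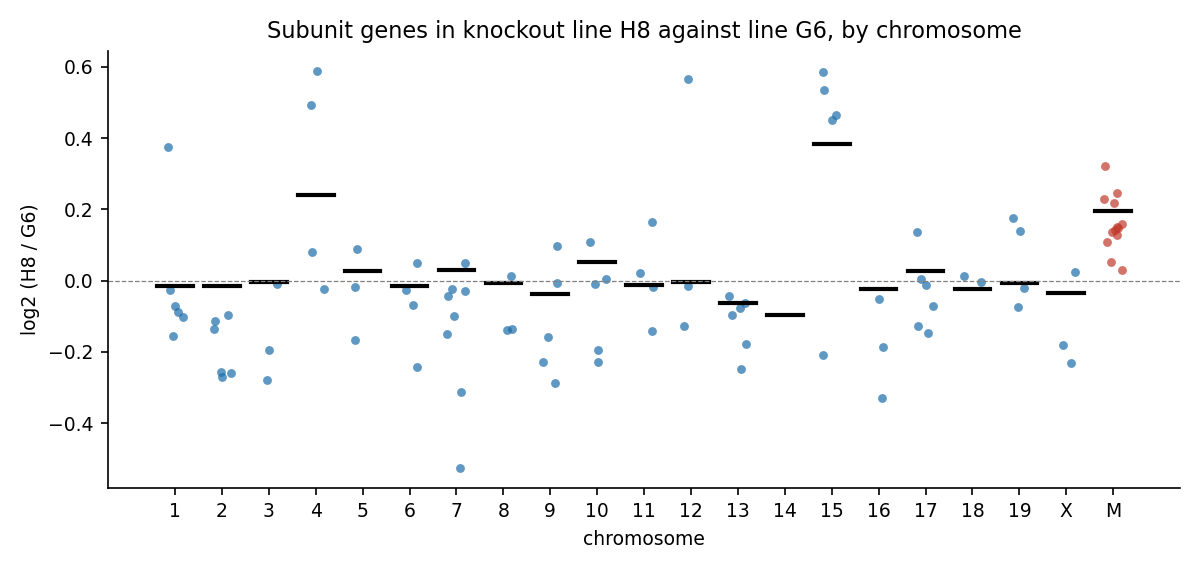
Log2 ratio of TPM in line H8 over line G6, averaged over the 3 days, for 96 subunit genes of at least 5 TPM by chromosome, nuclear in blue and mitochondrial in red; black bars are the medians over all tested protein-coding genes of the chromosome from the count model. Of the 5 subunit genes on chromosome 15, 4 lie above the chromosome's median of 0.38 and 1, Ndufb4c, lies below 0.

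The other genes of the pathway, taken from lists drawn up for this tissue, passed at shares to be read beside the 5.43% of all genes at day 0 and 9.87% at day 8. Of 50 tested assembly factors 3 passed at day 8 by edgeR, a share below that of all genes. Cox17, a copper chaperone for complex IV, rose (log2 difference 0.96, SE 0.21, adjusted p = 0.0425), and Ndufaf4 (-2.07, SE 0.25, adjusted p = 0.018), of complex I, and Tmem70 (-2.11, SE 0.41, adjusted p = 0.0342), of complex V, fell. Their median was 0.24 at day 0 and 0.15 at day 8. From day 0 to day 4 in the knockout, where 14.7% of all genes passed, Lyrm7 (-1.42, SE 0.35, adjusted p = 0.0461) and Cox17 (-0.85, SE 0.16, adjusted p = 0.0238) fell. Of 37 genes for mitochondrial DNA maintenance and expression 2 fell at day 0, the RNA-processing enzyme Pnpt1 (-1.30, SE 0.17, adjusted p = 0.0149) and Fastkd3 (-1.04, SE 0.21, adjusted p = 0.0489). At day 8 Mgme1, a nuclease of mitochondrial DNA replication, rose (1.15, SE 0.18, adjusted p = 0.0243) and Polg, the mitochondrial DNA polymerase, fell (-1.04, SE 0.18, adjusted p = 0.0281). Fastkd3 rose from day 0 to day 4 in the knockout (0.79, SE 0.18, adjusted p = 0.0368).

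Among 15 regulators of mitochondrial biogenesis, Ppargc1b (2.05, SE 0.39, adjusted p = 0.0415, edgeR) and Esrrb (1.02, SE 0.16, adjusted p = 0.026) rose at day 0. Ppargc1b, a transcriptional coactivator, was at 1.04 TPM in wild type and at 4.16 and 4.53 TPM in G6 and H8. Esrrb, which is also a pluripotency factor and stands in that marker list, rose at day 8 too (3.11, SE 0.18, adjusted p = 0.0142), and Nrip1, a corepressor, fell (-1.15, SE 0.26, adjusted p = 0.0485). From day 0 to day 4 in the knockout Esrrb (-2.29), Pprc1 (-0.76) and Gabpa (-0.69) fell, and from day 4 to day 8 Esrrb rose (1.56). Of 14 genes of the tricarboxylic acid cycle 1 passed, Idh3g, which rose at day 8 (0.89, SE 0.19, adjusted p = 0.039). Of 7 electron carriers outside the complexes 1, Etfb, fell from day 0 to day 4 in the knockout (-0.90, adjusted p = 0.0236). Of the 23 glycolysis genes 3 rose at day 0 (Gpi1, Aldoc and Pgk1), and 4 rose (Pfkp, Gapdh, Ldhb and Pdk1) and 1 fell (Slc16a1) at day 8, with list medians of 0.76 and 0.56. Over all days 5 rose (Hk2, Gpi1, Pfkp, Aldoa and Aldoc). From day 0 to day 4 in the knockout Pfkm and Gapdh rose. From day 4 to day 8 in the knockout Pfkl, Aldoc and Pgk1 fell (list median -1.07), while the median of the nuclear subunit genes was 0.09.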

How the data were processed

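PolyA+ RNA-seq was measured in 9 libraries, grouped by the labels' genotype and day. The authors deposited whole-number counts and TPM per gene, per the file headers. Per the submitters' processing notes, HISAT2 2.0.5, StringTie 1.3.3b and mm10 were used; which step each served, the annotation used and whether strand was read are not given in the sources used here. Each count table holds 259 entries with no gene name (0.024% to 0.040% of counts), which were left out. Coordinates, gene types and transcripts came from GENCODE M21 (mm10), which held all 49326 identifiers.

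A gene was tested if 2 or more libraries reached the CPM that 10 counts make in the median library. After TMM scaling, edgeR 4.0.16 in R 4.3.3 gave two-sided quasi-likelihood F tests, adjusted by Benjamini-Hochberg over 24794 genes, with a threshold of 0.05. A model with 6 group means (residual degrees of freedom 3, BCV 0.348) gave the contrasts within days, along the knockout course and between days. Day plus genotype (residual degrees of freedom 5) gave the contrast over all days. The lone wild-type library of each day takes its spread from the knockout pairs, and no label says that libraries of a line came from separate cultures, so p-values measure the spread between these libraries. The members and lists were chosen with earlier results of these data known. Members always named were the mitochondrial genes, tissue forms and core subunits. To these were added, in each comparison, up to 4 called members that rose most and 4 that fell most, and up to 4 called genes of each list. Other names were chosen after their values were seen, and 1 member that the rule names is not reported here.

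The same knockout lines were sampled on each day, so line pairs the libraries. Their H8 minus G6 differences correlated between days over 13511 genes (Pearson r 0.19 for days 0 and 4, 0.17 for days 0 and 8, 0.44 for days 4 and 8). Alternatives were other scalings, no filter, DESeq2 1.42.0, limma-voom 3.58.1, limma on log2 TPM with a pseudocount of 1 or 0.1, line as a replicate block, and each library left out. Shared sequence was counted over all 50-base stretches of each gene's longest transcript, against transcripts of genes at other loci on either strand. No molecular identifiers are recorded, so reads are not independent molecules.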

Additional observations from a re-analysis of the deposited data

How the results depend on the processing

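The counts of members that passed changed with the tool and with the libraries left out. DESeq2 called 17 members at day 0, 1 at day 4, 16 at day 8, 6 over all days, 28 from day 0 to 4 and 1 from day 4 to 8 in the knockout, and 3, 4 and 3 in the differences of contrasts (day 8 minus day 0, day 4 minus day 0, day 8 minus day 4); limma-voom called 14 at day 8 and 1 over all days. Over all genes DESeq2 called 14.9%, 5.23%, 21.7%, 13.4%, 24.2%, 6.34%, 15.6%, 7.57% and 6.36% in these comparisons in turn. The shares of all genes by limma-voom were 15.2% at day 8 and 3.57% over all days. With log2 TPM 7 passed at day 0 with either pseudocount, and 2 over all days with 0.1. Of all genes, 7.58% passed at day 0 with a pseudocount of 1 and 7.28% with 0.1, close to the share of members. Over all days 1.72% passed with 0.1. The replicate block gave 4 at day 0 and 12 at day 8, and changed no count by over 1.5 times elsewhere; without the day 0 libraries, an alternative chosen after seeing the data, 13 passed at day 8. Leaving out 1 library at a time gave 1 to 6 at day 0, 0 to 14 at day 8, 0 to 2 over all days, 0 to 16 from day 0 to 4, 0 to 2 for day 8 minus day 0, and 0 in the other comparisons. The median of the mitochondrial members changed sign by more than the spread between lines in 2 comparisons. At day 8 it was 0.005 with total count scaling, and ran from -0.099 to 0.01 with 1 library left out (0.01 without KO_day8 replicate 2, line H8). For day 8 minus day 4 it ran from -0.074 to 0.06 with 1 library left out (0.009 without KO_day8 replicate 1, line G6, and 0.06 without replicate 2), and was 0.051 with the counts of nuclear copies added, also chosen after seeing the data. Within that spread, it ran at day 0 from -0.489 without H8 of that day to 0.158 without G6, for day 8 minus day 0 from -0.263 without G6 of day 0 to 0.334 without H8, and for day 4 minus day 0 from -0.13 to 0.503 likewise. The cause of these changes was not tested. Single results were followed for the called members, and for Cox4i2 at day 0 and Cox6b2 over all days, which had not passed. Of the values under alternatives, 337 stayed on the same side of the threshold, 91 lost the call, 7 gained it and 0 reversed. The 7 gains were those of Cox4i2 and Cox6b2 in these comparisons.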
